A study of Homo sapiens with 8 samples.

Results

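The clustered protocadherins are cell surface adhesion proteins whose genes stand in tandem on the long arm of human chromosome 5. Members were the protein-coding genes with symbols starting with PCDHA, PCDHB or PCDHG in the GENCODE annotation of GRCh37, the build of hg19. The rule found 53 of 20090 protein-coding genes on the autosomes and the X chromosome, and used no measured value. They comprised 15 alpha, 16 beta and 22 gamma genes with 118 annotated start sites, and spanned chr5:140165721-140892544, which is 726.8 kb.

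Each alpha and gamma gene starts from a long first exon of its own, with its own promoter, and is spliced to constant exons at the end of its subfamily, whereas most beta genes hold their whole coding sequence in 1 exon. In neurons, where these genes are best known, single cells use a few of the alternate promoters, apparently at random, and the adhesion proteins made from them give each cell a surface identity. The C-type members, PCDHAC1, PCDHAC2, PCDHGC3, PCDHGC4 and PCDHGC5, are known to be used more uniformly. The factor CTCF and the cohesin ring link a used promoter to distal enhancers of the cluster, and unused promoters carry DNA methylation. H3K4me3, trimethylation of lysine 4 of histone H3, marks active promoters. FAIRE (formaldehyde-assisted isolation of regulatory elements) enriches nucleosome-free DNA, which is open chromatin.

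HCT8 cells, a human ileocecal colorectal adenocarcinoma line, were mock-treated or co-cultured for 5 h with membrane vesicles (MVs) shed by *E. coli* K-12 strain MC1061 or by *V. cholerae* strain C6706. The paper's methods give buffer as the mock treatment, where the labels call these cells untreated. All cells came from 1 line, and there was 1 H3K4me3 library and 1 FAIRE library for each of the 3 treatments. The 2 input libraries were not analysed here. With 1 library per treatment and assay there was no replicate check, so no difference was tested, no p-value is given, and the intervals below are exact 95% intervals for counting error only, which PCR copies make too narrow.

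A value is a normalized tag count, the tags (aligned reads) in called peaks per 10000000 tags of the library, summed over the peaks within 1000 bp of any annotated start of a gene. The H3K4me3 libraries held 3463875 to 13011839 tags, of which 38.6% to 56.1% lay in peaks, with the mock library lowest in both. The FAIRE libraries held 7888670 to 14474665 tags, and the share in peaks was 7.12% with mock treatment, 37.3% in the *E. coli* library and 13.9% with *V. cholerae* MVs. The FAIRE library of *E. coli* MVs therefore stood apart from the others, and its treatment and its library cannot be told apart. Of 12 markers of intestinal epithelium, 10 to 11 had an H3K4me3 peak, whereas 1 of 8 blood markers and 0 to 1 of 7 fibroblast and endothelial markers did. FAIRE peaks did not set these lists apart in the same way: in the mock, *E. coli* and *V. cholerae* libraries they stood at 10, 10 and 12 of the epithelial, 2, 5 and 2 of the blood, and 5, 5 and 4 of the fibroblast and endothelial markers. Of 12 neuron markers, 3, 4 and 5 had H3K4me3 and 2, 10 and 3 had a FAIRE peak in the mock, *E. coli* and *V. cholerae* libraries, and whether this bears on the member counts was not tested.

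The 4 members with H3K4me3 in any library were PCDHAC2 (ENSG00000243232), PCDHB14 (ENSG00000120327), PCDHGB1 (ENSG00000254221) and PCDHGA10 (ENSG00000253846). Their promoters are shown because all H3K4me3 at members rested on them: the first, second and last have the most H3K4me3 of their subfamilies, and PCDHGB1, added after its values were seen, had a peak only with MVs. Each sequence runs from 250 bases before to 50 bases after the outermost annotated start, on the plus strand of GRCh37, and its last 50 bases lie in the first exon. Capitals mark CGCT on either strand, the core of a conserved element known from the promoters of this family.

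They lie at chr5:140345805-140346104 (PCDHAC2), chr5:140602665-140602964 (PCDHB14), chr5:140729416-140729715 (PCDHGB1) and chr5:140792304-140792603 (PCDHGA10), and read as follows.
PCDHAC2: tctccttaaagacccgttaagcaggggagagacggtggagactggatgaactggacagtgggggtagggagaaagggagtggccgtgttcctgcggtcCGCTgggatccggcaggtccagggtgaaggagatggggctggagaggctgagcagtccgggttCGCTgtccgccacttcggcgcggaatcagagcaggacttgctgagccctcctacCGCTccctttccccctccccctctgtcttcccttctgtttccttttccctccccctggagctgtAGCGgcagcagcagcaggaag
PCDHB14: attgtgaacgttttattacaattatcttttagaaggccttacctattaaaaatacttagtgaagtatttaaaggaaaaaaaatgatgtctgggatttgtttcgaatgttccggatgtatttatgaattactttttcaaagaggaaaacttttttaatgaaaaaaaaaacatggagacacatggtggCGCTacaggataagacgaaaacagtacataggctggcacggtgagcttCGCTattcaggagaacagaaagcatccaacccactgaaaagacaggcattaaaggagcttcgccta
PCDHGB1: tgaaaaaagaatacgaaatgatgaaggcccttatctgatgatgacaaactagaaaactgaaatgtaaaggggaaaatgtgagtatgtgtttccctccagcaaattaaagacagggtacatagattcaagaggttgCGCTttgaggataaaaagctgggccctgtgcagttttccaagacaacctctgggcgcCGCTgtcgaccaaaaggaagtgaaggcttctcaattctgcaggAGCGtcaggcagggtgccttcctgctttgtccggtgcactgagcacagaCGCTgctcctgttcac
PCDHGA10: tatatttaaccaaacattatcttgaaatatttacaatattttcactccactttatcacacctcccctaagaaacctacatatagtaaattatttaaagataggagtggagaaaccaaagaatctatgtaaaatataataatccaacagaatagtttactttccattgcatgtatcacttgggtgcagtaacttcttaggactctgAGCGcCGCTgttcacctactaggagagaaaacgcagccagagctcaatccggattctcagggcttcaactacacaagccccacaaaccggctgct

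The GC content of these windows was 62.3% at PCDHAC2, 35.7% at PCDHB14, 47.3% at PCDHGB1 and 38.3% at PCDHGA10. The median over the 53 members was 39.3%, against 60.3% over the promoters of 20086 protein-coding genes with a complete window. The 5 C-type promoters stood apart from the 48 alternate ones, at a median GC of 59.7% against 38.7%. CGCT was found on either strand in 51 of 53 member windows (96.2%) and in 77.0% of all promoters, and the 2 windows without it were those of PCDHA11 and PCDHGC5. TATAAA, a core promoter motif, was found on either strand in 14 members (26.4%), in no C-type and in none of the 4 marked promoters, beside 10.9% of all promoters. A 12-letter form of the CTCF motif stood on either strand in 1 member, PCDHB9, and in 2.70% of all promoters. A match is a description of these letters only. CGCT was searched on both strands together and none of its matches in the printed promoters overlapped a match of the other motifs.

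H3K4me3 peaks were rare at the clustered protocadherins and lay at the same 3 starts in all libraries. In mock-treated cells 3 of 53 members (5.66%) had one, PCDHAC2, PCDHB14 and PCDHGA10, while 60.4% of all protein-coding genes had one. After either MV treatment it was 4 members (7.55%), beside 64.3% of all genes in the *E. coli* library and 65.2% in the *V. cholerae* library. The addition was PCDHGB1 with both MVs, 1.89% of the members, where 3.46% of all genes showed that pattern. No library had an H3K4me3 peak at 49 members (92.5%), beside 34% of all genes. Each subfamily thus had 1 marked member in mock-treated cells, and the gamma subfamily had 2 after either MV treatment. Of the C-type members, only PCDHAC2 was marked.

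**Figure D1:**
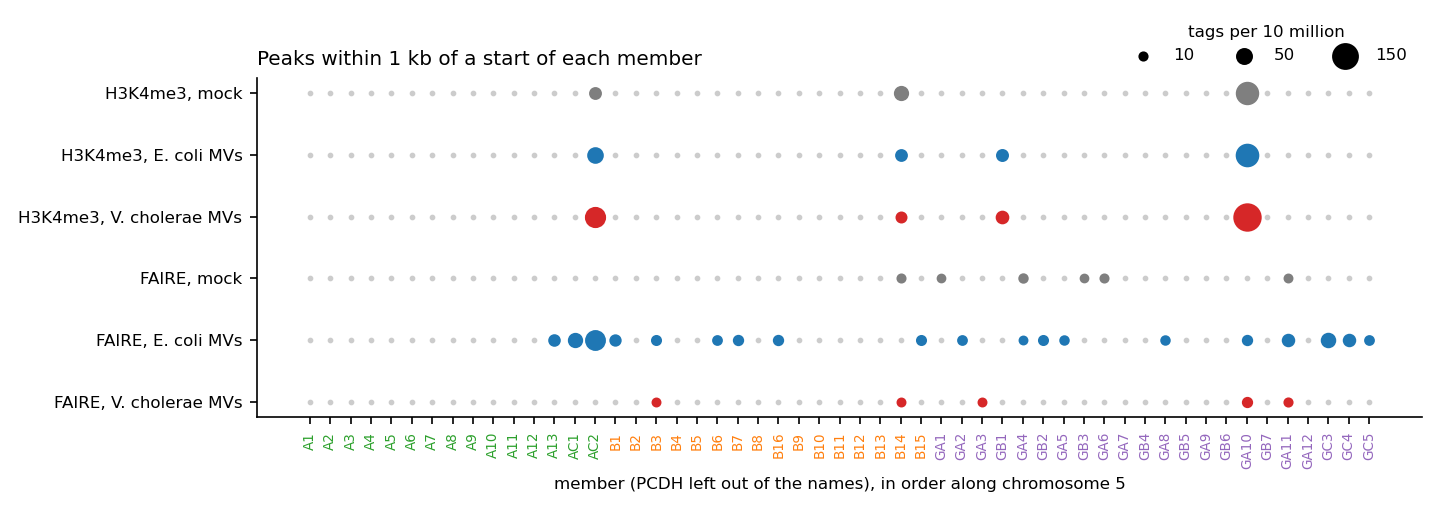
Peaks within 1 kb of a start of the 53 members (columns, in order along chromosome 5, names coloured green for alpha, orange for beta and purple for gamma) in the 6 libraries (rows). The area of a coloured dot grows with the normalized tag count and a small grey dot stands for no called peak: the H3K4me3 rows hold 3, 4 and 4 dots, and the FAIRE rows 6, 19 and 5.

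**Figure D2:**
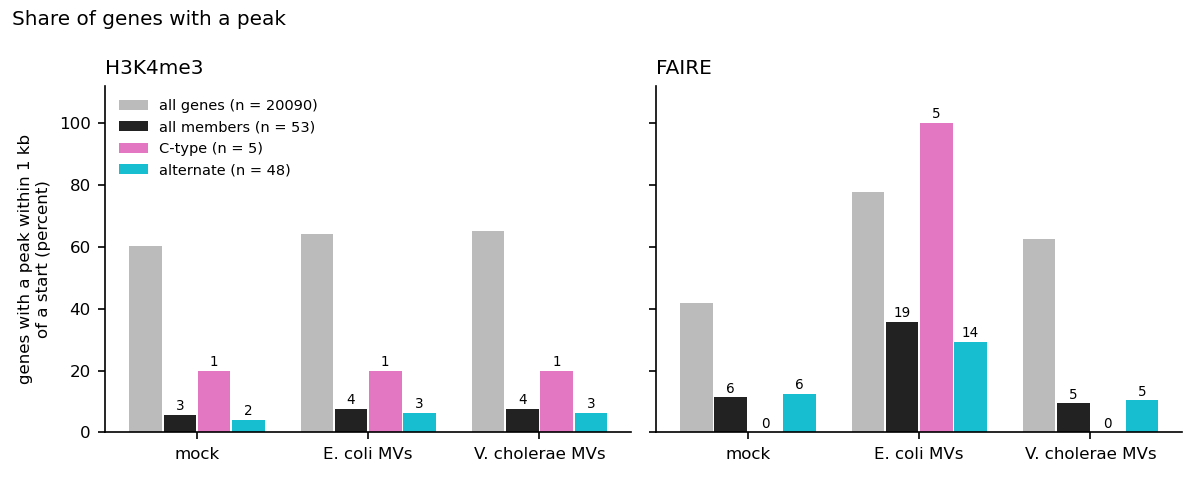
Percent of genes with a peak within 1 kb of a start, for all protein-coding genes and for the members, in total and split into C-type and alternate, with the number of members above each bar. The members as a whole stayed below all genes in each library and assay. All 5 C-type members had a FAIRE peak within 1 kb in the *E. coli* library and none of them with the other treatments, which changed at a window of 2000 bp.

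PCDHAC2, the last first exon of the alpha subfamily and a C-type, had an H3K4me3 normalized tag count of 23.1 with mock treatment (8 tags), 47.5 in the *E. coli* library (50 tags) and 86.8 with *V. cholerae* MVs (113 tags). It was lowest in the mock library and highest in the *V. cholerae* library. The log2 ratio against mock was 1.04 in the *E. coli* library (95% interval -0.05 to 2.33) and 1.91 with *V. cholerae* MVs (0.88 to 3.16), so only the latter exceeded counting error. *V. cholerae* MVs were above *E. coli* MVs by 0.87 (0.38 to 1.38). A log2 ratio of at least 1 against mock was found at 14.9% of all genes in the *E. coli* library and at 27.7% with *V. cholerae* MVs, among genes with a peak in both libraries. The called width grew with the value, from 500 bp to 1193 bp and 1407 bp. Per 1000 bp of called peak the ratios against mock were -0.21 and 0.42. Scaled to the tags in all called peaks of each library they were 0.56 (-0.53 to 1.85) and 1.37 (0.34 to 2.62). Only the ratio of *V. cholerae* MVs then exceeded counting error. A noncoding gene on the opposite strand, ENSG00000279028, overlaps this start, and peaks carry no strand.

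PCDHGA10, an alternate gamma gene, carried the most H3K4me3 of the members in each library, per 1000 bp of called peak as well as in sum. Its normalized tag count was 109.7 with mock treatment (38 tags), 112.1 in the *E. coli* library (118 tags) and 170.6 with *V. cholerae* MVs (222 tags). The mock and *E. coli* values differed by less than counting error, at a log2 ratio of 0.03 (-0.51 to 0.60). The *V. cholerae* value was higher than mock by 0.64 (0.14 to 1.17) and higher than *E. coli* MVs by 0.61 (0.28 to 0.94). Scaled to the tags in all called peaks of each library, the ratio of *V. cholerae* MVs to mock was 0.10 (-0.41 to 0.63), no longer beyond counting error. That of *E. coli* MVs to mock was then -0.45 (-0.99 to 0.12), also within counting error.

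PCDHB14, an alternate beta gene, was the only marked member whose summed normalized tag count was lower with MVs than with mock treatment. Its H3K4me3 normalized tag count was 37.5 with mock treatment (13 tags), 22.8 in the *E. coli* library (24 tags) and 18.4 with *V. cholerae* MVs (24 tags). The log2 ratios of -0.72 (-1.75 to 0.38) and -1.02 (-2.06 to 0.07) did not exceed counting error. A ratio of -1 or lower with *V. cholerae* MVs was found at 0.273% of all genes with a peak in both libraries. Scaled to the tags in all called peaks, the ratios were -1.20 (-2.23 to -0.11) and -1.57 (-2.60 to -0.47), and both then exceeded counting error. The same peak lies at the start of ENSG00000279983, a readthrough gene annotated from chr5:140602944 on the same strand, and when each peak counted only for the nearest start it went to that gene.

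PCDHGB1, an alternate gamma gene, had no H3K4me3 peak in mock-treated cells. It had 23.7 in the *E. coli* library (25 tags) and 27.7 with *V. cholerae* MVs (36 tags), which differed by a log2 ratio of 0.22 (-0.56 to 1.02). At the depth of the mock library these values would give 8.2 and 9.6 tags, and by the tags in all peaks 5.9 and 6.6 tags, where the lowest peak listed in the mock library had 4 tags. The tag threshold in the file header of that library was 6, so the values by tags in peaks lay on either side of it. Of all genes with a peak with *E. coli* MVs, 6.36% had none in the mock library, and with *V. cholerae* MVs it was 7.65%. A noncoding gene on the opposite strand, ENSG00000280026, overlaps the start of PCDHGB1.

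**Figure D3:**
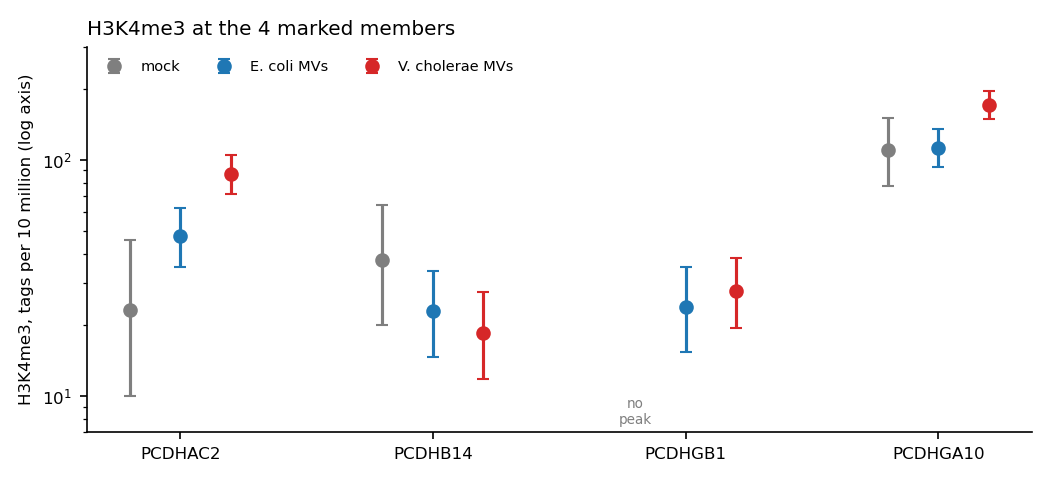
H3K4me3 normalized tag count (tags per 10000000 tags, log axis) of the 4 marked members in the 3 libraries, with exact 95% Poisson intervals for counting error as bars and 1 library per point. PCDHAC2 ran from 23.1 to 86.8, PCDHB14 from 37.5 down to 18.4, PCDHGB1 had no mock peak, and PCDHGA10 was the highest in each library.

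Per 1000 bp of called peak, the scale on which genes can be compared, the marked members were low. PCDHGA10 had 118 per 1000 bp with mock treatment, above 46.3% of the marked genes, and 111 and 132 with *E. coli* and *V. cholerae* MVs, above 30.2% and 34.4%. The other marked members had 29.2 to 61.7 per 1000 bp and were above 4.64% to 12.1% of the marked genes. No marked member passed the median of all marked genes, which was 124, 149 and 162 per 1000 bp in the 3 libraries. The peaks themselves stood 10.1-fold to 65.6-fold over input. Over the 3 members with H3K4me3 in all libraries, the median log2 ratio was 0.03 for *E. coli* MVs against mock and 0.64 for *V. cholerae* MVs against mock, both times that of PCDHGA10, beside 0.52 and 0.64 over all genes.

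FAIRE peaks were found at more members than H3K4me3, and mostly with *E. coli* MVs. In mock-treated cells 6 of 53 members (11.3%) had a FAIRE peak, beside 41.7% of all genes: PCDHB14 and the gamma genes PCDHGA1, PCDHGA4, PCDHGB3, PCDHGA6 and PCDHGA11. With *E. coli* MVs it was 19 members (35.8%), beside 77.8% of all genes, and with *V. cholerae* MVs 5 members (9.43%), beside 62.4% of all genes. In 29 members (54.7%) no library had a FAIRE peak, beside 18.8% of all genes. Among them were PCDHA1 to PCDHA12. No alpha member had a FAIRE peak in the mock or *V. cholerae* library.

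With *E. coli* MVs all 5 C-type members and 14 of 48 alternate members had a FAIRE peak. By subfamily these were 3 of 15 alpha genes (PCDHA13, PCDHAC1 and PCDHAC2), 6 of 16 beta genes (PCDHB1, PCDHB3, PCDHB6, PCDHB7, PCDHB15 and PCDHB16) and 10 of 22 gamma genes. Per 1000 bp of called peak the 19 members ranged from 17.7 at PCDHGA4 to 34.0 at PCDHAC2, and all were below the median of all genes with a FAIRE peak, 48.3. The summed normalized tag count was 83.7 at PCDHAC2 (66 tags in 2 peaks, of which the peak at its outermost start held 72.3), 39.3 at PCDHGC3, 38.0 at PCDHAC1, 26.6 at PCDHGC4 and 12.7 at PCDHGC5. The sum at PCDHGC3 was also of 2 peaks, 24.1 at its outermost start and 15.2 at a later start, each below PCDHAC1 and PCDHGC4. The alternate members among the 19 had 8.87 to 26.6.

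Of these 19 members, 17 had no FAIRE peak in the mock library. Among all genes with a FAIRE peak with *E. coli* MVs, 48.8% had none with mock treatment. At the depth of the mock library the 17 members would give 16.5 to 121 tags. Each was more than the 9 tags of the lowest mock peak listed and the tag threshold of 12 in its file header. Scaled instead by the tags in all called peaks, which were a far smaller share in the mock library, they would give 3.1 to 23.1 tags. In sum 3 members reached 9 tags, the C-types PCDHAC1, PCDHAC2 and PCDHGC3, and only PCDHAC2 passed 12. The sum of PCDHGC3 came from 2 separate peaks of 19 and 12 tags, while 1 peak of 21 tags, at PCDHGC4, gave 7.3. So neither peak of PCDHGC3 reached 9 tags on its own. How far the share of tags in peaks bears on the 17 members was not tested. The 15 members with a FAIRE peak in the *E. coli* library and in no other were 28.3% of the members, and 12.3% of all genes showed that pattern.

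In the *V. cholerae* library, FAIRE peaks stood at 5 members, PCDHB3, PCDHB14, PCDHGA3, PCDHGA10 and PCDHGA11. Of these, PCDHB3, PCDHGA3 and PCDHGA10 had no mock peak, while 43.5% of all genes with a FAIRE peak in that library had none with mock treatment. The member counts of the *V. cholerae* and mock libraries thus differed by 1, where the count over all genes rose from 8387 to 12543. PCDHGA1, PCDHGB3 and PCDHGA6 (5.66% of the members) had a FAIRE peak in the mock library alone, a pattern of 1.31% of all genes. Their values were 8.29, 8.29 and 9.67. At the depth of the *E. coli* library these would give 6.5, 6.5 and 7.6 tags, and at that of the *V. cholerae* library 10, 10 and 11.7. The lowest peaks listed there had 6 and 7 tags, and the header thresholds were 9 and 11. By the tags in all called peaks the mock values would give 34.3, 34.3 and 40 tags, and 19.6, 19.6 and 22.8. The part of depth in the missing peaks was not tested. PCDHGA3 (1.89% of the members) had a FAIRE peak in the *V. cholerae* library alone, a pattern of 1.5% of all genes. Its value of 9.11 would give 7.2 tags at the depth of the *E. coli* library.

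PCDHGA11, an alternate gamma gene, was the only member (1.89%) with a FAIRE peak in all 3 libraries, beside 34.6% of all genes. Its normalized tag count was 8.98 with mock treatment (13 tags), 26.6 in the *E. coli* library (21 tags in 2 peaks) and 9.94 with *V. cholerae* MVs (12 tags). The log2 ratio was 1.57 for *E. coli* MVs against mock (0.50 to 2.69) and 0.15 for *V. cholerae* MVs against mock (-1.12 to 1.40). For *V. cholerae* against *E. coli* MVs it was -1.42 (-2.58 to -0.33). A ratio of at least 1 for *E. coli* MVs against mock was found at 94.4% of all genes with both peaks, and a ratio of -1 or lower for *V. cholerae* against *E. coli* MVs at 80.2%. The second *E. coli* peak lay upstream, in the first exon of PCDHGB7, and over the peak at the start itself the ratio of *E. coli* MVs to mock was 0.76 (-0.50 to 2.01), within counting error. Scaled to the tags in all called peaks, both ratios against mock turned to -0.82, with intervals of -1.89 to 0.30 in the *E. coli* library and -2.08 to 0.43 with *V. cholerae* MVs, and none of the 3 ratios then exceeded counting error.

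4 other members had a FAIRE peak in 2 libraries. By pair these were 1 with mock and *E. coli* MVs, 1 with mock and *V. cholerae* MVs, and 2 with both MVs. Of all genes, 5.14%, 0.662% and 25.6% had these patterns. PCDHGA10 had 15.2 in the *E. coli* library (12 tags) and 14.9 with *V. cholerae* MVs (18 tags), and none with mock treatment. PCDHB3 had 13.9 in the *E. coli* library and 9.11 with *V. cholerae* MVs, 11 tags each. These pairs differed by log2 ratios of -0.03 (-1.16 to 1.16) and -0.61 (-1.96 to 0.73), within counting error. PCDHB14 had 9.67 with mock treatment (14 tags) and 9.11 with *V. cholerae* MVs (11 tags), and none in the *E. coli* library, a log2 ratio of -0.09 (-1.37 to 1.16). At the depth of the *E. coli* library its mock value would give 7.6 tags, and by the tags in all called peaks 40. PCDHGA4 had 11.1 with mock treatment (16 tags) and 8.87 with *E. coli* MVs (7 tags), a log2 ratio of -0.32 (-1.84 to 1.04). With that scaling the ratio became 1.39 (0.26 to 2.58) at PCDHGA10 and -2.71 (-4.23 to -1.35) at PCDHGA4, both then beyond counting error, 0.81 (-0.54 to 2.16) at PCDHB3 and -1.05 (-2.34 to 0.19) at PCDHB14.

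The mark and the open chromatin were found together at 1 or 2 members in each library. In mock-treated cells 1 of the 3 marked members, PCDHB14, also had a FAIRE peak, beside 53.5% of all marked genes. With *E. coli* MVs it was 2 of 4 (PCDHAC2 and PCDHGA10), beside 97.2%, and with *V. cholerae* MVs 2 of 4 (PCDHB14 and PCDHGA10), beside 84.0%. PCDHGB1 had no FAIRE peak in any library. Among the unmarked members 5 of 50, 17 of 49 and 3 of 49 had a FAIRE peak, beside 23.8%, 42.8% and 22.1% of all unmarked genes. So 17 of the 19 members with a FAIRE peak with *E. coli* MVs had no H3K4me3 peak there. Over all genes it was 3073 of the 15620 with a FAIRE peak in that library.

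FAIRE peaks at members lay over the first exon more than upstream of it. With *E. coli* MVs 20 of 22 peaks had their middle downstream of the nearest start, at a median of 462 bp after it. Over all genes 55.5% of such peaks lay downstream, at a median of 27 bp. In the mock library 5 of 6 and in the *V. cholerae* library 5 of 5 member peaks lay downstream, at medians of 185 bp and 307 bp, beside medians of 6 bp and -13 bp over all genes. The GC content of the members rises at the same side: the 1000 bp after the start had a median GC of 50.5% and the 1000 bp before it 35.2%, and 52 of 53 members were richer in GC after the start. Over all genes the medians were 58.0% and 51.3%, and 73.5% were richer after the start.

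**Figure D4:**
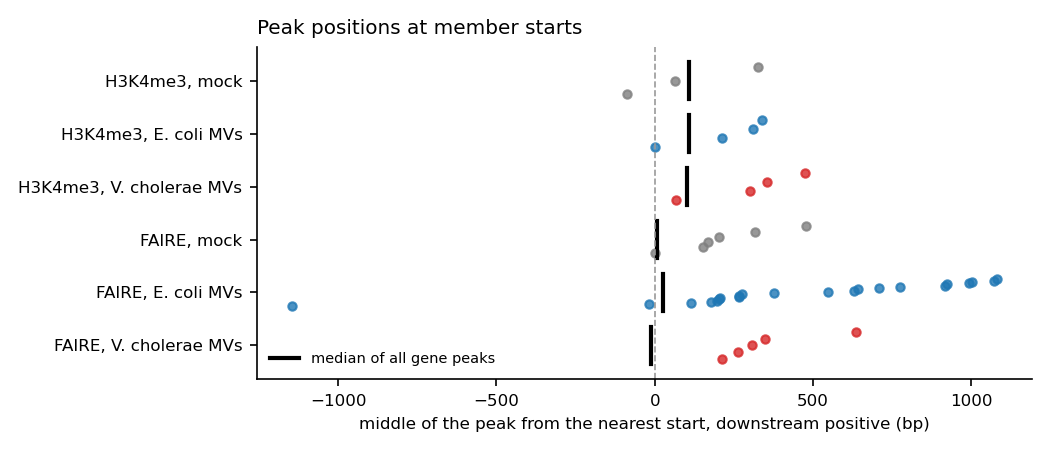
Distance in bp from the nearest annotated start to the middle of each peak within 1 kb of a member, downstream positive, for the 6 libraries, with 1 dot per peak and member and a black bar at the median over the peaks of all protein-coding genes. Of 22 FAIRE dots with *E. coli* MVs 20 lie right of the start, and the 5 with *V. cholerae* MVs all do.

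Members resemble each other in sequence, which can keep reads from being placed. Within 1000 bp of the outermost starts, a median of 99.9% of all 50-base words of a member occurred once in the cluster, with a range from 61.3% (PCDHB8 and PCDHB13) to 100%. All 4 members with H3K4me3 were at 100%, and the members with a FAIRE peak were at 93.8% to 100%. The 29 members without a FAIRE peak had a median of 95.8%, and the lowest of them were PCDHB8, PCDHB13, PCDHA7 at 67.6% and PCDHGB4 and PCDHGB5 at 75.6%. The part of read placement in their lack of peaks was not tested.

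Along the whole span, H3K4me3 was called in 5 peaks with mock treatment, 9 in the *E. coli* library and 8 with *V. cholerae* MVs, which joined into 9 regions. 5 regions were called in all libraries, 3 with both MVs and not in mock, and 1 with *E. coli* MVs alone. Per Mb this was 6.87, 12.4 and 11.0 peaks in the span, beside 7.77, 10.4 and 9.66 over the genome. The region with the most tags was no protocadherin promoter but the start of TAF7, a subunit of the general transcription factor TFIID that lies between the beta and gamma genes on the opposite strand. It had 548.5, 613.6 and 538.7 in the mock, *E. coli* and *V. cholerae* libraries, and neither ratio against mock exceeded counting error. After scaling to the tags in all called peaks both did, at -0.32 (-0.56 to -0.08) and -0.57 (-0.80 to -0.33). The log2 ratio of the summed normalized tag count of the span against mock was 0.33 (0.14 to 0.53) in the *E. coli* library and 0.34 (0.15 to 0.54) with *V. cholerae* MVs. These sums covered 5700 bp in mock-treated cells, 10322 bp in the *E. coli* library and 10015 bp with *V. cholerae* MVs, so per 1000 bp of called peak the order turned, at 136, 94.3 and 97.8. Without the TAF7 start the log2 ratios were 0.68 (0.32 to 1.05) and 0.97 (0.63 to 1.33).

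4 H3K4me3 regions lay away from the starts of protein-coding genes. One, at chr5:140380583-140382314, stood in the intron between the last 2 constant exons of the alpha genes, 35393 bp after the start of PCDHAC2, and was called in all libraries. It had 54.9 with mock treatment (19 tags), 56.0 in the *E. coli* library (59 tags) and 84.5 with *V. cholerae* MVs (110 tags). Its log2 ratio of 0.62 for *V. cholerae* MVs against mock (-0.09 to 1.41) did not exceed counting error, and that of *V. cholerae* against *E. coli* MVs, 0.59 (0.12 to 1.07), did. Another, at chr5:140713397-140714738, lay 3986 bp after the start of PCDHGA1, across the end of the longer of its 2 annotated first exons. It had 76.0 in the *E. coli* library (80 tags) and 44.6 with *V. cholerae* MVs (58 tags) and was not called with mock treatment. At the depth of the mock library these values would give 26.3 and 15.4 tags. *V. cholerae* MVs were below *E. coli* MVs there by a log2 ratio of -0.77 (-1.28 to -0.26). The 2 remaining regions, in an intron of TAF7 and upstream of PCDHB2, had 8.45 to 12.3.

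**Figure D5:**
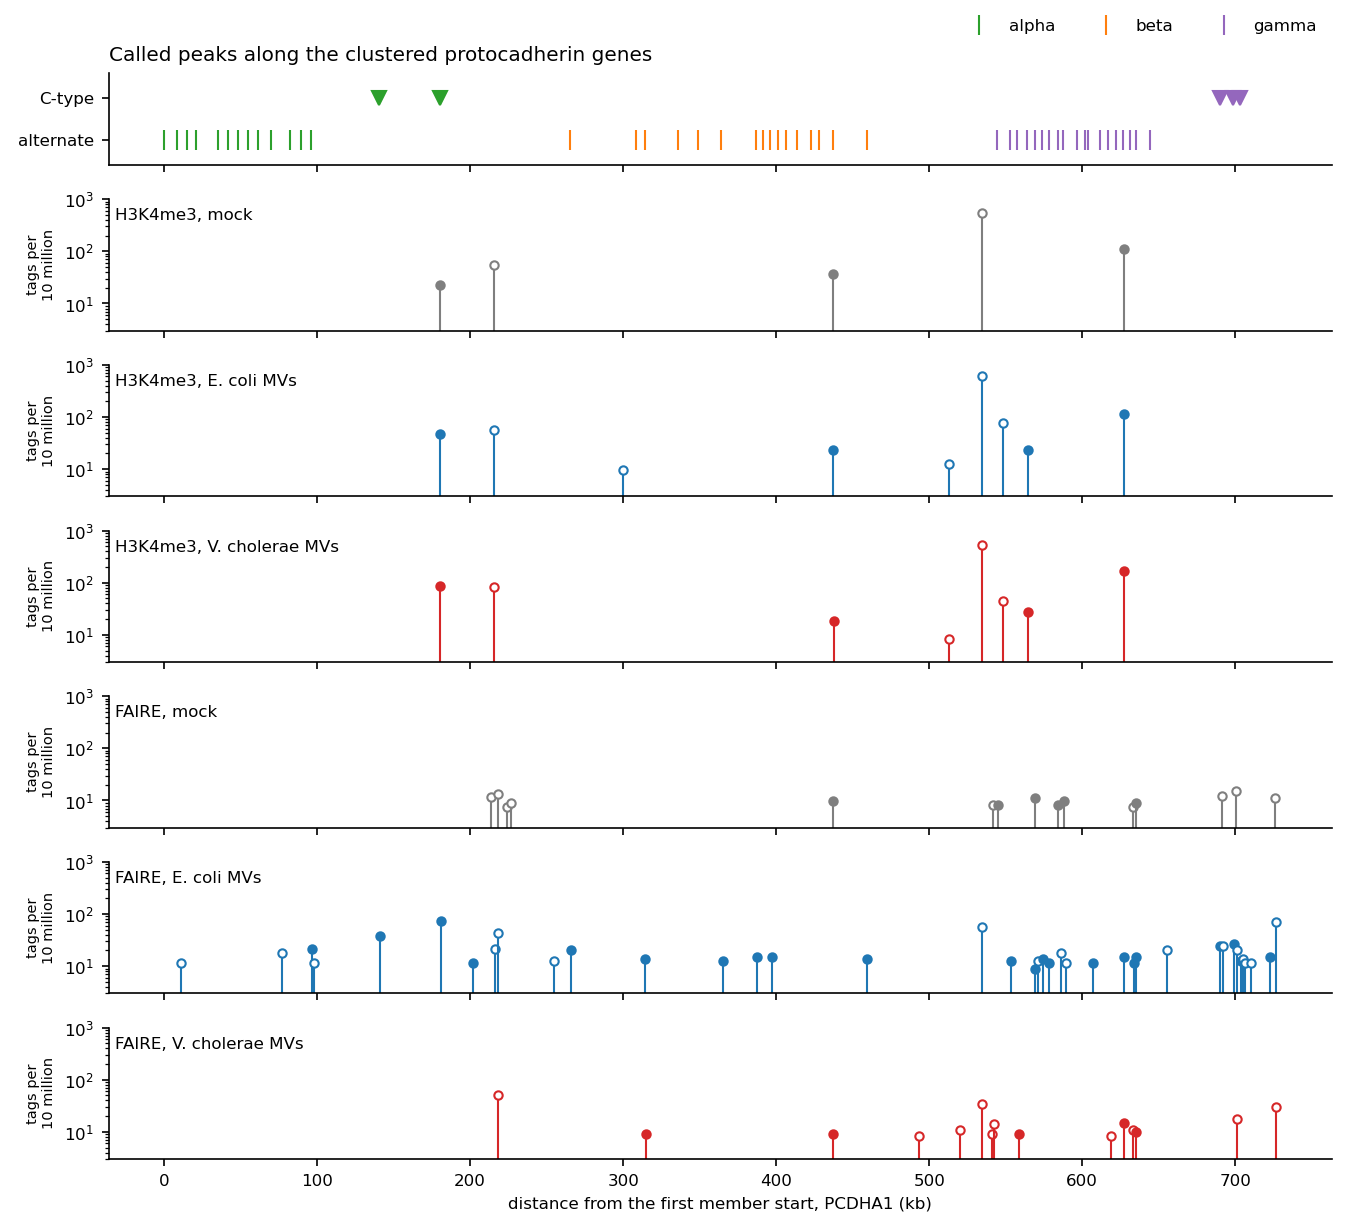
Called peaks along the cluster in the 6 libraries, with the distance from the start of PCDHA1 in kb on the horizontal axis and the normalized tag count (tags per 10000000 tags) on a log axis. Filled circles are peaks within 1 kb of a member start, open circles all others, and the top row gives the member starts by subfamily and type. The tallest H3K4me3 line in each library is TAF7, and FAIRE lines are densest with *E. coli* MVs.

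FAIRE was called in 15, 39 and 15 peaks of the span in the mock, *E. coli* and *V. cholerae* libraries. Per Mb these were 20.6, 53.6 and 20.6, beside 21.9, 31.0 and 26.2 over the genome. With *E. coli* MVs 22 of the 39 peaks lay at member starts and another 8 in first exons beyond 1000 bp. Joined over the libraries there were 53 regions, of which 30 (56.6%) were called with *E. coli* MVs alone, beside 27.8% of regions over the genome. The summed normalized tag count was 152 with mock treatment over 8423 bp, 800 with *E. coli* MVs over 28712 bp and 248 with *V. cholerae* MVs over 9983 bp. The log2 ratios against mock were 2.40 (2.17 to 2.62) and 0.70 (0.45 to 0.96). Scaled to the tags in all called peaks of each library they were 0.0047 and -0.26, so the rise of the sum in the *E. coli* library and the larger share of tags in peaks of that library went together.

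4 FAIRE regions of the span were called in all 3 libraries. The one at chr5:140383442-140384302 lies in the same alpha intron as the H3K4me3 region, just beyond its end. It had 13.1 with mock treatment (19 tags), 43.1 in the *E. coli* library (34 tags) and 51.3 with *V. cholerae* MVs (62 tags), and both log2 ratios against mock, 1.72 (0.86 to 2.61) and 1.97 (1.21 to 2.79), exceeded counting error. The median FAIRE ratios over all genes with both peaks were 3.07 in the *E. coli* library and 1.38 with *V. cholerae* MVs. Scaled to the tags in all called peaks, the ratios of this region were -0.68 (-1.53 to 0.22) and 1.00 (0.24 to 1.83), so only the second remained beyond counting error. The one at chr5:140891261-140893958 covers the end of the last constant exon of the gamma genes. It had 11.1, 69.7 and 30.6 in the mock, *E. coli* and *V. cholerae* libraries, and its log2 ratios against mock were 2.66 (1.83 to 3.56) and 1.47 (0.59 to 2.42). When scaled they were 0.27 (-0.56 to 1.17) and 0.50 (-0.38 to 1.45), within counting error. The region in the first exon of PCDHGC4, at chr5:140865769-140867079, had 15.2, 20.3 and 17.4, which did not differ beyond counting error, whereas the scaled ratio of *E. coli* MVs to mock was -1.97 (-3.00 to -0.98). The last was the start of PCDHGA11. Besides these 4, 3 regions were called in the mock and *V. cholerae* libraries only. Among the regions called in both, the largest FAIRE ratios of *V. cholerae* MVs against mock lay at the alpha intron and at the end of the cluster. The only member starts among them were those of PCDHB14 and PCDHGA11. PCDHB3, PCDHGA3 and PCDHGA10 had no mock peak and so no ratio, so member starts and other places cannot be compared in this way.

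Genes outside the cluster that belong with it by family or function were counted in the same way. Of 12 protocadherins outside the cluster, 2, 3 and 3 had H3K4me3 in the mock, *E. coli* and *V. cholerae* libraries, where 60.4%, 64.3% and 65.2% of all genes did, the background for the other lists as well. PCDH1 had the highest log2 ratio against mock, 0.84 (0.58 to 1.10) and 1.18 (0.93 to 1.43), and PCDH12 the lowest, 0.37 (0.04 to 0.71) and 0.42 (0.10 to 0.75). Of 9 cadherins and catenins, which act in cell adhesion, 7 were marked in each library. JUP, the junction protein plakoglobin, had the highest ratios, 0.66 (0.34 to 0.99) and 1.20 (0.89 to 1.52), and CTNND1, p120 catenin, the lowest, -0.09 (-0.25 to 0.07) and -0.59 (-0.75 to -0.43).

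Of 24 genes for factors of folding, silencing or DNA methylation, such as CTCF, cohesin subunits and DNA methyltransferases, 23, 23 and 24 had H3K4me3. Their median log2 ratios against mock were 0.55 and 0.57, beside medians over all genes of 0.52 in the *E. coli* library and 0.64 with *V. cholerae* MVs. The highest was DNMT3A, a de novo DNA methyltransferase, at 2.41 (1.54 to 3.44) and 2.71 (1.85 to 3.73), and the lowest RAD21, a cohesin subunit, at 0.03 (-0.20 to 0.26) and -0.10 (-0.32 to 0.13). The DNMT3A ratios rest on a low mock value of 31.8, where the lowest peak listed in the mock library had 11.5. Of 11 genes for intracellular partners of the protocadherins, 10 were marked in each library, from ABI1, a part of the WAVE complex, at 0.21 (-0.03 to 0.46) and 0.10 (-0.14 to 0.34) to AXIN1, a scaffold of the Wnt pathway, at 1.54 (1.01 to 2.12) and 1.65 (1.12 to 2.21).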

How the data were processed

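H3K4me3 ChIP and FAIRE libraries of HCT8 cells were analysed from 6 deposited peak lists, 1 per treatment and assay. The authors aligned reads to hg19 and called peaks in each library with HOMER against input. HOMER 4.7.2, Bowtie 1.1.2 and SAMtools 1.3.1 stand in the submitters' processing notes, and the paper's methods name Bowtie 2 and also MACS. Per the file headers, the limits were a Poisson p of 0.0001, 4-fold enrichment relative to input, and 1000 bp from one peak to the next. The deposited normalized tag count is a signal per 10000000 tags. The authors' fold is the ratio of a peak to its input, the deposited tag count of a peak is unscaled or scaled to the input, and the authors' p-value over input was used only to describe the lists.

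Whole tags were recovered from the normalized values and the total tags of the library (largest distance from a whole number 0.0721). A gene was given the sum of its peaks within 1000 bp of any start in GENCODE release 44 on GRCh37, and genes with the same symbol were joined. A peak near several starts counted for each gene. Peaks sharing at least 1 bp were joined into regions. Ratios have exact 95% conditional binomial intervals and levels exact 95% Poisson intervals (SciPy 1.17.1, Python 3.11.15), for counting error only. With 1 library per group no test was run. A background share is the percent of all genes past the same rule.

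Any member with a peak may be named, with every value where 2 libraries of an assay had one. Of each other list the highest and lowest log2 ratio against mock are named, except for a FAIRE value that is not reported here. The members, lists and alternatives were chosen with earlier results of these data known. Marker lists of 4 cell types were counted once, to check the cells. The intervals and the assignment of peaks were tested on simulated data.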

Additional observations from a re-analysis of the deposited data

How the results depend on the processing

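No paired analysis was possible because there was only 1 library of an assay for a treatment. Peak lists hold no values below their calling threshold, so a missing peak is not an absent signal, and the mock H3K4me3 library was the shallowest. The 151 alternative values comprised 117 that lay within the counting interval of the ratio reported or within 1.5 times of the count reported, 7 that reversed and 27 that moved, and 3 could not be computed.

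The counts of members with H3K4me3 stayed within 1 under each alternative. FAIRE counts did not: with peaks at 8-fold or more over input they were 0 with mock treatment, 6 in the *E. coli* library and 1 with *V. cholerae* MVs, with 6 and 1 members gained against mock and 0 regions called in all libraries. At equal list length (chosen after seeing the data) 10 and 2 members had FAIRE with *E. coli* and *V. cholerae* MVs, and 9 and 1 were gained. A window of 500 bp gave 11 gained in the *E. coli* library and one of 2000 bp gave 10 members and 5 gained with *V. cholerae* MVs. At 500 bp the C-type PCDHGC5 had no FAIRE peak in the *E. coli* library. At 2000 bp the C-types PCDHGC3 and PCDHGC4 had one with mock treatment, and PCDHGC4 and PCDHGC5 with *V. cholerae* MVs. The absence of C-type FAIRE peaks outside the *E. coli* library thus depended on the window.

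For the H3K4me3 median of *V. cholerae* MVs against mock, counting only the nearest gene gave 1.27 and scaling to tags in called peaks 0.10. For *V. cholerae* against *E. coli* MVs the value per 1000 bp was 0.25. The H3K4me3 ratios of the span against mock reversed to -0.15 and -0.20 when scaled to tags in called peaks and to -0.53 and -0.47 per 1000 bp. Without starts of other genes (chosen after seeing the data) they were 0.68, 0.97 and, between the MVs, 0.29. The FAIRE median, that of PCDHGA11, became -0.82 (*E. coli* MVs against mock) and 0.0040 (*V. cholerae* against *E. coli* MVs) when scaled, and 0.34 and -0.19 per 1000 bp. Its intervals are wide, so that a scaled -0.82 for *V. cholerae* MVs against mock still lay within them. The FAIRE ratios of the span became 5.50 and 3.70 against mock at 8-fold, 0.0047, -0.26 and, between the MVs, -0.27 when scaled, and 0.63 and -0.17 per 1000 bp for *E. coli* MVs against mock and between the MVs. The cause was not tested, though scaling by construction removes the difference in the share of tags in peaks.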

Other observations

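FAIRE peaks were also counted at these lists in the mock, *E. coli* and *V. cholerae* libraries. They stood at 13, 24 and 21 of the 24 factors of folding, silencing or DNA methylation, and at 7, 11 and 10 of 11 intracellular partners. Of 9 cadherins and catenins 7, 7 and 6 had one, and of 12 protocadherins outside the cluster 3, 5 and 3. The shares over all genes were 41.7%, 77.8% and 62.4%. Among the factors, TRIM28, a corepressor of zinc finger proteins, had the highest FAIRE log2 ratio against mock, 5.53 (4.67 to 6.55) for *E. coli* MVs and 3.54 (2.65 to 4.59) for *V. cholerae* MVs, where the medians over all genes with both peaks were 3.07 and 1.38. The lowest with *E. coli* MVs was ATRX, a chromatin remodeller, at 0.63 (-0.67 to 1.91). The mock values were 7.6 at TRIM28 and 8.98 at ATRX, where the lowest FAIRE peak listed in the mock library had 6.22.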
